A study of Mus musculus with 6 samples.

Results

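The thrombospondin family comprised 5 genes here, Thbs1, Thbs2, Thbs3, Thbs4 and Comp, and was measured by 8 probe sets of 45101 on the array. All probe sets annotated to 1 of these genes alone were taken, which gave 2 for Thbs1, 3 for Thbs2 and 1 each for Thbs3, Thbs4 and Comp. A further probe set (1421811_at) named Thbs1 together with Pald1 and was assigned to neither. The family was chosen by its measured difference between these same knockout and wild-type arrays, so the differences of its members are given as a description without a test.

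Transcripts of primary chondrocytes were measured on Affymetrix arrays. The cells were cultured from the rib cages of newborn Slc39a13-KO mice (3 arrays) and of wild-type mice (3 arrays). Slc39a13 encodes the zinc transporter ZIP13, and the KO allele had exons replaced with a neomycin resistance cassette in the germ line, so every cell of the animal carried it. The cultures were not sorted, and whether each array came from a separate mouse or culture was not given in the sources used here, so p-values measure only the spread between arrays. The Slc39a13 signal was 100, 196 and 165 on the KO arrays, against 901, 1081 and 991 on the wild-type arrays (log2 fold change -2.67, standard error 0.22, adjusted p = 0.000189 by limma with Benjamini-Hochberg adjustment over 12726 genes). Whether this probe set lies inside the replaced exons was not checked, since no genome was used here.

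Thrombospondins are secreted, calcium-binding glycoproteins of the extracellular matrix that join collagens, proteoglycans, growth factors and cell surface receptors. Thrombospondin-1 and -2 assemble as trimers and carry the thrombospondin type 1 repeats, which inhibit blood vessel growth through the receptor CD36. Thrombospondin-3, thrombospondin-4 and COMP (cartilage oligomeric matrix protein) lack these repeats and assemble as pentamers. COMP is abundant in cartilage and tendon, and mutations of human COMP that hold the protein in the endoplasmic reticulum cause pseudoachondroplasia.

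The promoters are shown because the members differed to unequal degrees. RefSeq promoter windows (GRCm38.p6, 250 bases before to 50 bases after the start) matched 3 of the 5 members, Thbs2, Thbs3 and Thbs4. Capitals mark every match, on either strand, to TATAAA (the box of that name near many start sites), to CAGAC (Smad half-site), to GGGCGG (GC box), to CCAAT (an upstream promoter box) and to ACAAT (Sox core). No matches overlapped.
Thbs2, chr17:14694213-14694512, minus strand: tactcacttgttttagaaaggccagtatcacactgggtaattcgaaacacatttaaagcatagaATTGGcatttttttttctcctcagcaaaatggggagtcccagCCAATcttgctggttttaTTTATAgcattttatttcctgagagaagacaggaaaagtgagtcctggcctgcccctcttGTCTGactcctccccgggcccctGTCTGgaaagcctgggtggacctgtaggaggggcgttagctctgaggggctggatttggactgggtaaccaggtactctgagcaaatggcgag
Thbs3, chr3:89214930-89215229, plus strand: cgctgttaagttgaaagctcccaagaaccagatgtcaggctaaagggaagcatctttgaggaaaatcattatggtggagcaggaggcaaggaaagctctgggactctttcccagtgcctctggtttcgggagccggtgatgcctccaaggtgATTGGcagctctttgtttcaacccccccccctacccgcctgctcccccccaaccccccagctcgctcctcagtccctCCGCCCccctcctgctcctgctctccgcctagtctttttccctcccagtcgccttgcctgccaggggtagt
Thbs4, chr13:92794769-92795068, minus strand: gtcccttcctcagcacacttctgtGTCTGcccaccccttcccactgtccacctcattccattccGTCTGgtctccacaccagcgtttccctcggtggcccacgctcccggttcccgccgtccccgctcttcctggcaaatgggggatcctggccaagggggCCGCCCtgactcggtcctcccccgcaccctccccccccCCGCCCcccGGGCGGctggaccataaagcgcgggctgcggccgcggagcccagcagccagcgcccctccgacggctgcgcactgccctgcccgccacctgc

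These windows differed in composition, with 48.3% G and C for Thbs2, 59% for Thbs3 and 72% for Thbs4. Thbs2 held 1 match to TATAAA, printed as TTTATA because it lies on the opposite strand. It stood at base -126 from the start, counted to the first base of the match on the printed strand. Such a match, on either strand, was found in 13.6% of 32851 windows. The Smad half-site, bound by the transcription factors that carry TGF-β signals, occurred at -66 and -43 in Thbs2 and at -226 and -186 in Thbs4, and 16.2% of windows held at least 2. Thbs4 held 3 GC boxes, at -89, -51 and -42, and Thbs3 held 1 at -21. At least 1 GC box was found in 35.7% of windows, and at least 2 in 19.5%. The CCAAT box stood at -186 and -144 in Thbs2 and at -98 in Thbs3. It occurred at least once in 37.4% of windows, and 11.7% held at least 2. ACAAT, the core bound by Sox factors, was found in none of the 3 windows and in 31% of all windows. Such matches describe the letters of the windows and are not binding sites.

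Of the 5 members, 4 were past the threshold (adjusted p under 0.05), all of them higher in KO, and this count is a description, since the members were selected on this contrast. Across the array 4.64% of genes were higher in KO (590 of 12726) and 4.65% were lower (592). With each array centred on its median these counts were 106 and 228, and Thbs1 was no longer past the threshold. At the level of probe sets, 5 of the 8 were past the threshold and higher in KO, beside 3.44% of 23309 probe sets. Every KO array lay above every wild-type array for 4 of the 5 members, as was so for 16.0% of genes. Thbs1 counts among these 4 by probe set 1450377_at alone, since its groups overlapped at 1460302_at. All 8 probe sets passed the filter on low signals. In bulk cultures, a change in the number of cells that make a transcript and a change in its amount per cell cannot be told apart.

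**Figure D1:**
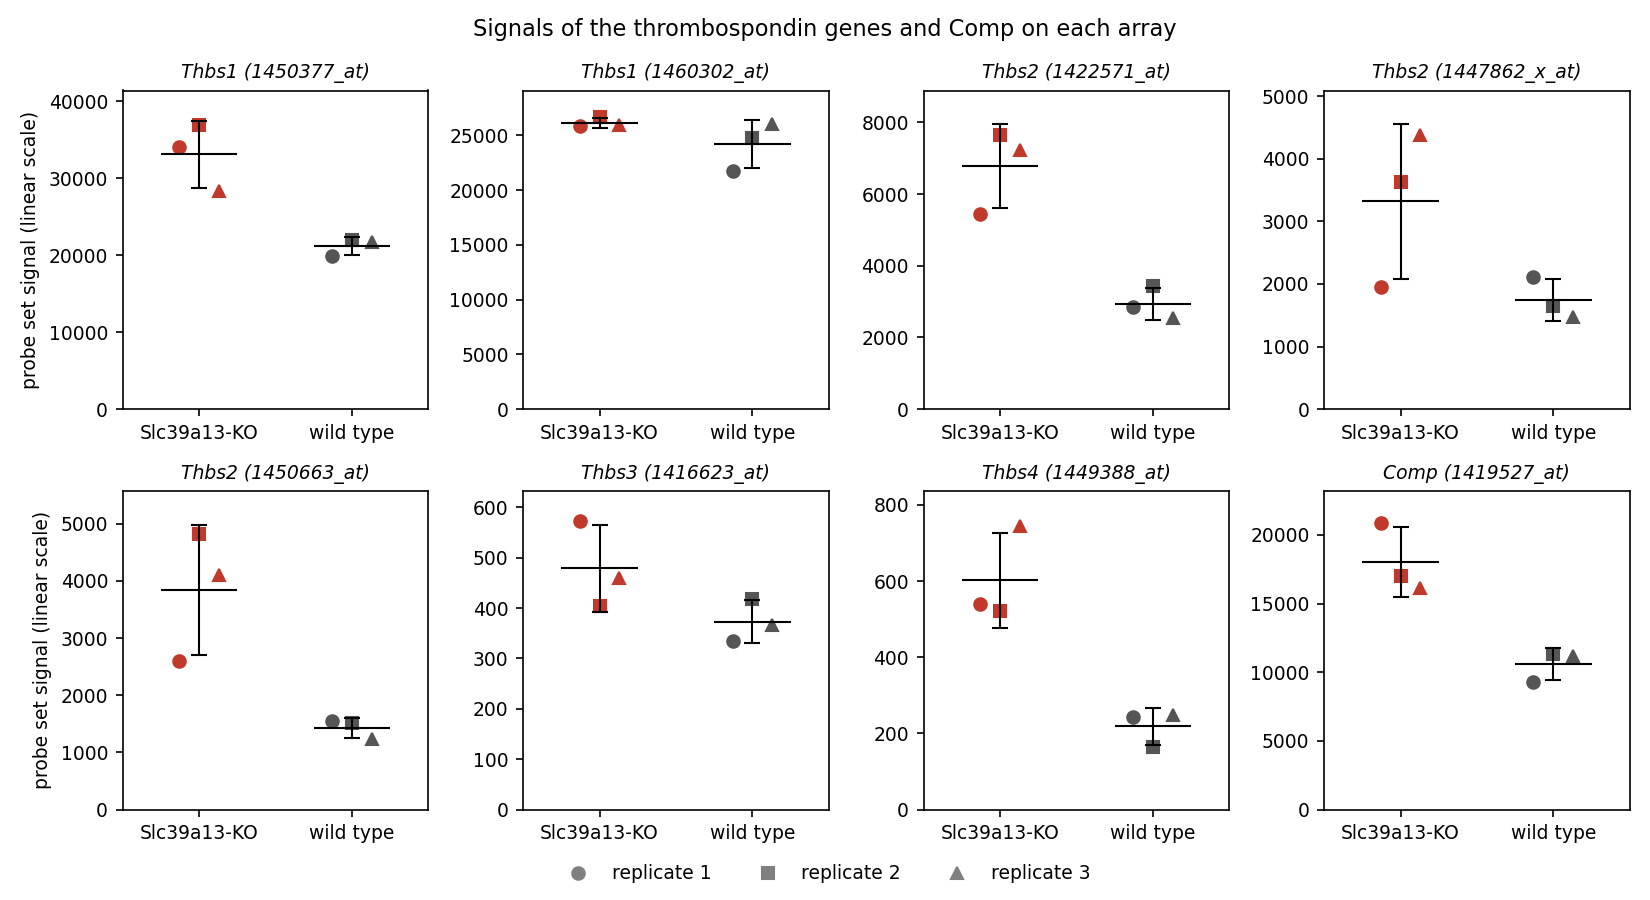
Signal (linear scale) of each probe set on every Slc39a13-KO array (left, red) and wild-type array (right, gray), with horizontal lines at the mean and bars of 1 SD (n = 3 each). The KO arrays stand above all wild-type arrays for 5 of the 8 probe sets and overlap them for the second Thbs1 probe set, for Thbs2 1447862_x_at and for Thbs3.

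Among the trimeric members, Thbs2 showed the larger difference. Thbs2 encodes thrombospondin-2, which regulates collagen fibril assembly and restrains blood vessel growth. Its brightest probe set (1422571_at) gave 5445, 7663 and 7238 on the KO arrays, against 2862, 3426 and 2530 on the wild-type arrays. The lowest KO signal was 1.59 times the highest wild-type signal. The group means were 6782 ± 1177 in KO and 2940 ± 453 in wild-type chondrocytes (SD, n = 3 each), a log2 fold change of 1.20 with a standard error of 0.14.

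The other Thbs2 probe sets differed in the same direction, with more spread. Probe set 1450663_at read 2602, 4817 and 4102 on the KO arrays, against 1552, 1514 and 1228 on the wild-type arrays (log2 fold change 1.38, standard error 0.20), and its groups did not overlap. For 1447862_x_at the KO signals were 1957, 3626 and 4374, against 2115, 1656 and 1464 in wild type (log2 fold change 0.86, standard error 0.25). Here KO replicate 1 fell below wild-type replicate 1, so the groups overlapped. In all 3 Thbs2 probe sets KO replicate 1 was the lowest KO array, and without it the log2 fold changes were 1.35 (1422571_at), 1.64 (1450663_at) and 1.20 (1447862_x_at).

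Thbs1 encodes thrombospondin-1, the member best known for activating latent TGF-β. Its 2 probe sets did not behave alike. Probe set 1450377_at, the brighter over all 6 arrays, gave 34052, 36900 and 28370 in KO, against 19913, 22038 and 21683 in wild type. The lowest KO array was 1.29 times the highest wild-type array, and the log2 fold change was 0.63 (standard error 0.11). Probe set 1460302_at gave 25811, 26689 and 25925 in KO, against 21760, 24785 and 25997 in wild type. These groups overlapped, with wild-type replicate 3 above KO replicates 1 and 3, and the log2 fold change was 0.12 (standard error 0.087).

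Which Thbs1 probe set stands for the gene decides its value. On the wild-type arrays alone 1460302_at was the brighter, so the KO signals themselves decided that 1450377_at was taken, and this was noticed only after the values were seen. The mean of both probe sets gave a log2 fold change of 0.38. Both lay at the 99.6th percentile of probe set signals, and the highest signal of any probe set reached 46009 to 72106 on the KO arrays and 41607 to 51239 on the wild-type arrays. Whether bright probe sets were compressed near the top of the scale was not tested.

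Of the pentameric members, Thbs4 differed most and Thbs3 least. Thbs4 encodes thrombospondin-4, a matrix protein of tendon and muscle. Its probe set (1449388_at) gave 539, 521 and 745 in KO, against 243, 164 and 250 in wild type. The lowest KO signal was 2.08 times the highest wild-type signal. The log2 fold change was 1.43 with a standard error of 0.20, and stayed between 1.24 and 1.54 with each array left out in turn.

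Comp, which encodes COMP, followed with a smaller difference. Signals of 1419527_at were 20891, 16992 and 16168 in KO, against 9259, 11354 and 11178 in wild type. No KO array came within the wild-type range, the lowest being 1.42 times the highest wild-type array. The means were 18017 ± 2523 in KO and 10597 ± 1162 in wild type (SD, n = 3 each), a log2 fold change of 0.76 with a standard error of 0.12. KO replicate 1 was the highest array, and without it the log2 fold change was 0.65.

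Thbs3 encodes thrombospondin-3, whose loss in mice alters the timing of skeletal maturation. The groups overlapped at its single probe set (1416623_at), with 573, 404 and 460 in KO, against 334, 418 and 366 in wild type. KO replicate 2 lay below wild-type replicate 2. The log2 fold change of 0.35 (standard error 0.16) became 0.21 without KO replicate 1 and ranged to 0.46 with other arrays left out. Of the genes beside Thbs3 in the RefSeq gene order, Mtx1, a mitochondrial import gene, differed by 0.11 on the log2 scale (adjusted p = 0.386) and Trim46 by -0.13 (adjusted p = 0.771), so 0 of the 2 measured neighbours passed. Muc1 lay under the filter.

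**Figure D2:**
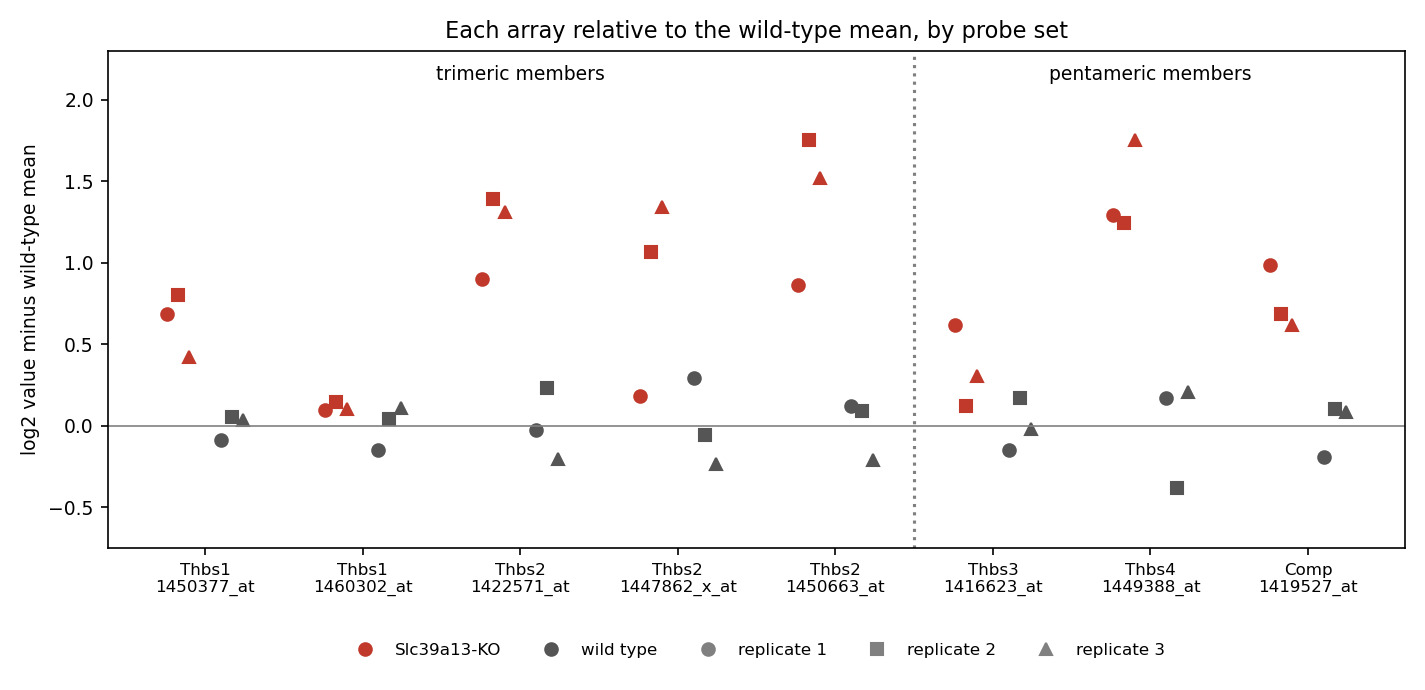
Log2 value of each array minus the wild-type mean of the same probe set, for Slc39a13-KO (red) and wild type (gray), with symbols for replicates 1, 2 and 3. KO replicate 1 is the lowest KO array in the 3 Thbs2 probe sets and the highest in Thbs3 and Comp.

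The mean differences of the trimeric and of the pentameric members lay close together, with a wide error on the gap between them. Relative to the wild-type mean, the trimeric members (Thbs1 and Thbs2) averaged 0.79, 1.10 and 0.86 on the log2 scale on the KO arrays, a mean of 0.92 ± 0.16 (SD, n = 3). The pentameric members (Thbs3, Thbs4 and Comp) averaged 0.97, 0.68 and 0.89, a mean of 0.85 ± 0.15. KO replicate 1 was thus the lowest for the trimeric mean and the highest for the pentameric mean. The trimeric minus pentameric value was -0.17, 0.41 and -0.03 on the KO arrays, against -0.00, 0.18 and -0.18 on the wild-type arrays. The change in that value between KO and wild type was 0.07 with a standard error of 0.20, and its sign was not stable. It became -0.19 when Thbs1 was read from 1460302_at, -0.10 without KO replicate 2 and -0.02 without wild-type replicate 3. Within each class the spread was wider than between them, as 0.63 for Thbs1 and 1.20 for Thbs2, and 0.35 for Thbs3, 0.76 for Comp and 1.43 for Thbs4 show.

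**Figure D3:**
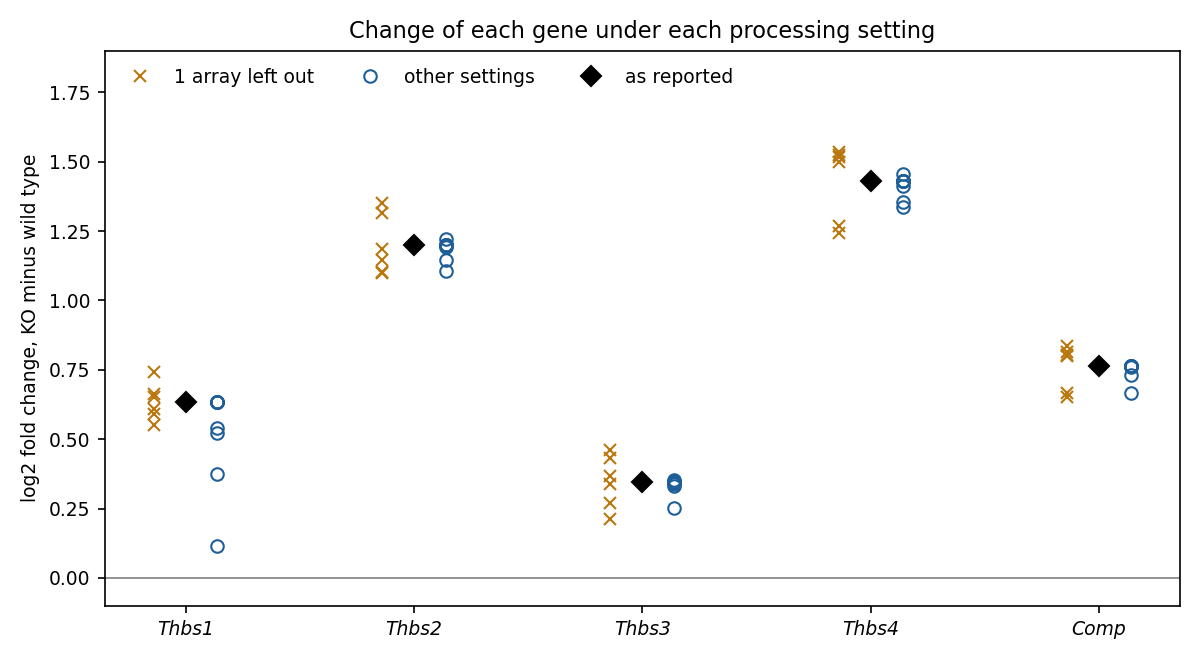
Log2 fold change (Slc39a13-KO minus wild type) of each member as reported (diamonds), with 1 array left out (crosses) and under the other processing settings (circles). All values lie above 0, and those of Thbs1 reach lowest, to 0.12, where its other probe set was used.

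The genes with the profile most like each member over the 6 arrays were found by Pearson r of log2 values, as a description, with the group difference itself shared by all points. For each member they are the top 3 of 12721 genes, so a high r carries no weight by itself. A link in function was not tested. For Comp they were Creb3l1 (r = 0.997, log2 fold change 0.81), an endoplasmic reticulum stress transducer that drives collagen secretion, Sec31a (r = 0.996, log2 fold change 0.32), a coat protein of vesicles leaving the endoplasmic reticulum, and Grn (r = 0.994, log2 fold change 0.34), progranulin. Thbs1 was closest to Mrpl40 (r = 0.995), of the mitochondrial ribosome, Nrip1 (r = 0.994), a nuclear receptor corepressor, and Vps33b (r = 0.993), a vesicle trafficking gene. Thbs2 was closest to the kinetochore gene Kntc1 (r = 0.992), the γ-tubulin gene Tubg1 (r = 0.992) and Nemp2 (r = 0.991). For Thbs3 the nearest were Synrg (r = 0.997), Tmem204 (r = 0.993) and Mrpl2 (r = 0.991), and for Thbs4 they were Atp6v0b (r = 0.995), Dhx35 (r = 0.993) and Cryz (r = 0.992).

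Genes that work with the family were tested in the same fit. Of 91 such genes 78 were tested, and 13 were higher in KO, 3 were lower and 62 did not pass, with a median log2 fold change of 0.19 beside 0.01 over all tested genes, of which 4.64% were higher and 4.65% lower. With arrays centred on their medians, 6 of the 78 were higher and 3 lower. These lists were not part of the family's choice but were written with earlier results of these data known. Each adjusted p below is limma's, with Benjamini-Hochberg adjustment over all 12726 genes.

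Among the receptors, 2 of 13 were higher in KO and 1 was lower (median log2 fold change 0.03). Cd36, the receptor for the type 1 repeats, gave 169, 189 and 188 in KO, against 70.3, 65.2 and 71.8 in wild type (log2 fold change 1.30, standard error 0.26, adjusted p = 0.0123). The Cd36 call was lost without wild-type replicate 2 (adjusted p = 0.0564). Its wild-type signals lay below the median signals of those arrays (88.4, 80.7 and 83.7). With the filter at the 60th percentile, 11 receptors were tested and 1 was higher. Lrp1, which takes up thrombospondins for degradation, gave 1692, 1843 and 1710 in KO, against 955, 1245 and 1207 in wild type (log2 fold change 0.63, standard error 0.11, adjusted p = 0.00762). With arrays centred on their medians its adjusted p was 0.148, and its other probe set did not pass. Itga3, an integrin subunit that binds thrombospondin-1, was lower, with 442, 531 and 660 in KO, against 875, 1226 and 1100 in wild type (log2 fold change -0.97, standard error 0.17, adjusted p = 0.00676), while neither of its other probe sets passed.

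Cd47, the receptor of the thrombospondin C-terminal domain, differed little, by 0.01 on the log2 scale (adjusted p = 0.946). Sdc4, a heparan sulfate proteoglycan that binds the N-terminal domain, was picked out after its values were seen. Its signals were 8888, 8414 and 2221 in KO, against 2624, 2671 and 2683 in wild type. KO replicate 3 stood apart from the other KO arrays and below all wild-type arrays, and Sdc4 did not pass (adjusted p = 0.15). Without that array its adjusted p was 2.56e-05.

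The matrix partners of COMP held the most calls, with 5 of 13 higher in KO and 1 lower (median log2 fold change 0.50). Col14a1, a fibril-associated collagen, gave 706, 511 and 425 in KO, against 249, 257 and 264 in wild type (log2 fold change 1.04, standard error 0.18, adjusted p = 0.00762). Acan, the main proteoglycan of cartilage, gave 11166, 8763 and 7466 in KO, against 4321, 5425 and 4710 in wild type (log2 fold change 0.91, standard error 0.14, adjusted p = 0.00452). In both genes KO replicate 1 was the highest array, as it was for Comp.

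The fibrillar collagen genes Col1a1 and Col1a2 and the cartilage collagen gene Col9a1 were higher by 0.69, 0.59 and 0.53 on the log2 scale (adjusted p = 0.0301, 0.0210 and 0.0279). These calls were less secure. Col1a1 lost its call without each array other than KO replicate 3 (adjusted p up to 0.114), Col1a2 without KO replicate 2, wild-type replicate 1 or wild-type replicate 2 (up to 0.0839), and Col9a1 without wild-type replicate 1 or 2 (up to 0.112). Median centring ended all 3 calls (adjusted p = 0.105 for Col1a1, 0.0877 for Col1a2 and 0.104 for Col9a1), which left 2 of 13 higher. The other probe set of Col1a1 gave 0.22 and did not pass. The single lower partner was Col9a3, named after its values were seen, at -0.50 on the log2 scale (adjusted p = 0.0123). Its other probe sets gave -0.07 and -0.04 and did not pass. Without wild-type replicate 1 or 2 its adjusted p was 0.0615 or 0.0611.

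Of 12 tested matricellular genes, relatives in function that regulate matrix and signalling rather than build fibrils, 4 were higher in KO and 0 lower (median log2 fold change 0.44). Ccn5, also called Wisp2, gave 2330, 1982 and 1669 in KO, against 522, 669 and 872 in wild type (log2 fold change 1.54, standard error 0.18, adjusted p = 0.00111). Ccn3, also called Nov, gave 1106, 545 and 809 in KO, against 363, 210 and 254 in wild type (log2 fold change 1.52, standard error 0.26, adjusted p = 0.00642). Periostin (Postn) and tenascin-C (Tnc), matrix proteins of perichondrium and tendon, were higher by 0.55 (adjusted p = 0.0155) and 0.45 (adjusted p = 0.0164) on the log2 scale. Postn lost its call without KO replicate 2, wild-type replicate 1 or wild-type replicate 3 (adjusted p up to 0.0720), and Tnc without KO replicate 2 or wild-type replicate 1 (up to 0.0657). Centring arrays on their medians also ended both calls (adjusted p = 0.158 for Postn and 0.323 for Tnc), which left 2 of the 12 genes higher.

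COMP and the thrombospondins fold in the endoplasmic reticulum, where chaperones and stress factors act on them, and of these factors 2 of 10 were higher in KO and 0 lower (median log2 fold change 0.17). Creld2, a folding factor induced by endoplasmic reticulum stress, gave 3718, 4143 and 4261 in KO, against 2268, 2269 and 1978 in wild type (log2 fold change 0.89, standard error 0.088, adjusted p = 0.000525). Manf, another secreted stress factor, was higher by 0.46 (adjusted p = 0.00573), a call lost with arrays centred on their medians (adjusted p = 0.237). Atf6, the stress sensor bound by thrombospondin-4, differed by 0.01 (adjusted p = 0.966), and the calcium-binding chaperone Calr by 0.16 (adjusted p = 0.219).

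In the list of latent TGF-β genes and activators 1 of 13 was lower in KO and 0 were higher (median log2 fold change 0.03). It was Itgb8, an integrin subunit that activates latent TGF-β, with 96.5, 146 and 111 in KO, against 276, 275 and 283 in wild type (log2 fold change -1.20, standard error 0.21, adjusted p = 0.00792).

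Of 5 tested proteases that cleave thrombospondins or COMP, limma called 0 in either direction (1 at an unadjusted p under 0.05, and 0 by the methods' t-test after adjustment). The lowest p belonged to Adamts1 (log2 fold change 0.27, adjusted p = 0.0774), and the collagenase gene Mmp13 had 0.55 (adjusted p = 0.243). Of 12 other genes with type 1 repeats limma also called 0 (4 at an unadjusted p under 0.05, and 0 by the methods' t-test after adjustment). For both lists the unadjusted counts stand without a share over all genes beside them. The Wnt enhancers Rspo3 and Rspo2 had log2 fold changes of 0.44 (adjusted p = 0.0538) and 1.02 (adjusted p = 0.0756), and Rspo2 passed without KO replicate 2 (adjusted p = 0.00917), Rspo3 without KO replicate 3 (adjusted p = 0.0223).

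**Figure D4:**
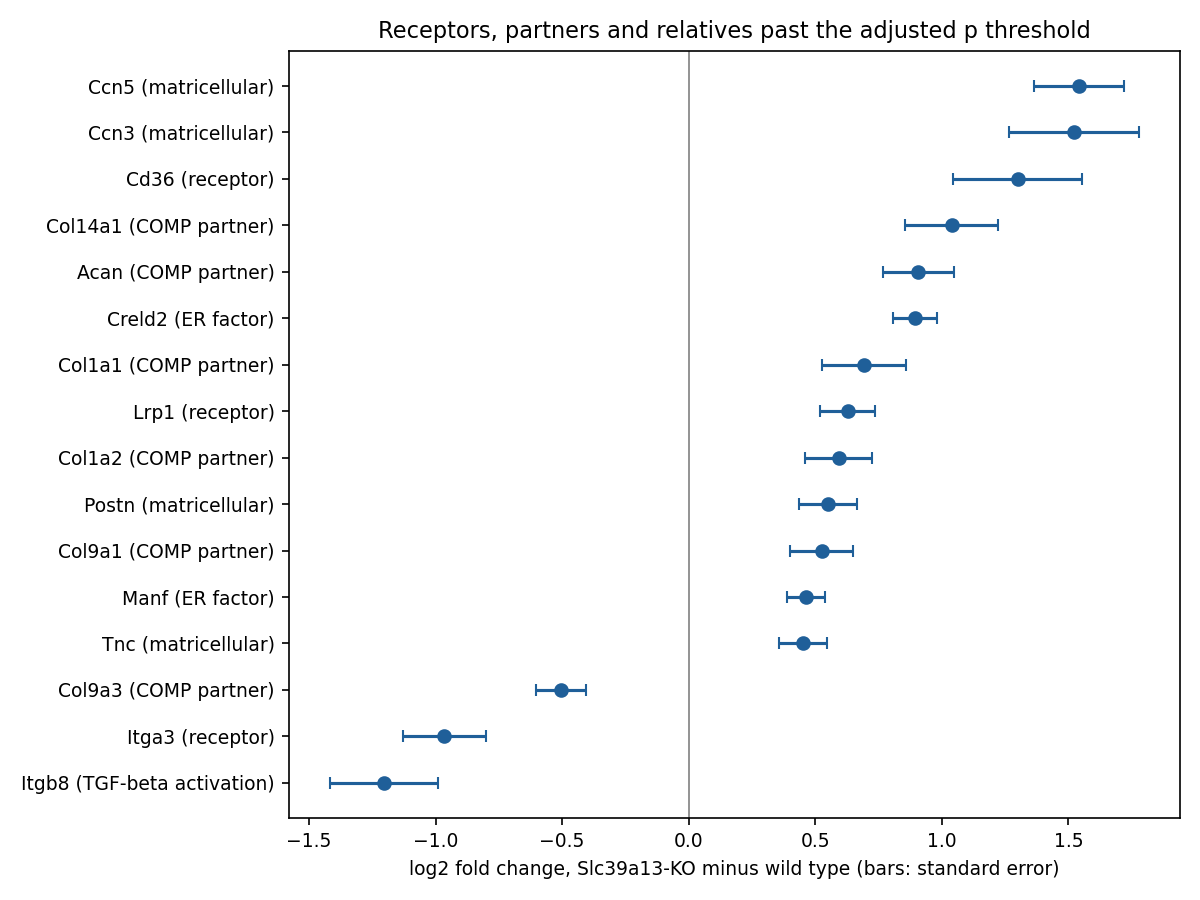
Log2 fold change (Slc39a13-KO minus wild type) with its standard error for the 16 receptors, partners and relatives of the thrombospondins past the threshold. Of these, 13 lie above 0, led by Ccn5 at 1.54, and 3 lie below 0, with Itgb8 at -1.20.

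Markers of other cells moved with the groups, and their part in the differences above was not tested. The summed signal of 8 chondrocyte markers was 143231 to 199345 on the KO arrays, against 100157 to 123342 on the wild-type arrays. Col2a1 (means 48581 in KO and 33885 in wild type) and Cnmd (42858 and 28595) were the largest parts. Of the 8, 4 were higher (1 of 8, Acan, with arrays centred on their medians). The other 4 did not pass. They were Col2a1 at 0.50 (adjusted p = 0.0834), Hapln1 at 0.13, Sox9, needed to specify the lineage, at 0.04, and Matn1 at -0.40 (adjusted p = 0.234) on the log2 scale. The fibroblast and perichondrium list summed to 73409 to 94191 in KO, against 52248 to 63659 in wild type (5 of 8 higher and 2 lower, 0 in either direction with median centring). The 2 lower were Pdgfra at -0.51 (adjusted p = 0.0263) and Thy1 at -0.49 (adjusted p = 0.0143) on the log2 scale. In both, every KO array lay below every wild-type array. The other Pdgfra probe sets gave 0.03 and -0.80 and did not pass. Among the higher genes, the other Col3a1 probe set gave -0.008 and did not pass. Tendon markers summed to 17893 to 27609 in KO, against 8890 to 11383 in wild type (2 of 4 tested higher, also with median centring). Most of these sums was Fmod, with means of 19274 in KO and 8644 in wild type. Tnmd was higher by 1.14 (adjusted p = 0.000334) and Fmod by 1.13 (adjusted p = 0.00435) on the log2 scale. Mkx and Scx ran the other way without passing, at -0.58 (adjusted p = 0.153) and -0.17 (adjusted p = 0.673). For Mkx every KO array lay below every wild-type array. Osteoblast markers summed to 2045 to 2999 in KO, against 958 to 1462 in wild type (2 of 3 tested higher, 0 with median centring).

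Mesothelial markers ran the other way, summing to 315 to 692 in KO, against 2701 to 4730 in wild type (5 of 6 lower, also with median centring). Skeletal muscle markers summed to 819 to 1052 in KO, against 1313 to 1475 in wild type (1 of 4 tested lower, 0 with median centring). In macrophages, endothelium and platelets limma called 0 of 5, 0 of 1 and 0 of 2 tested genes. Macrophage markers summed to 534 to 975 in KO, against 467 to 596 in wild type. Their log2 fold changes were 1.54 (C1qb), 1.05 (Lyz2), 0.31 (Adgre1), -0.05 (Csf1r) and -0.55 (Cd68). Lyz2 passed without KO replicate 2 (adjusted p = 0.0275). Platelets are rich in thrombospondin-1, and their markers summed to 417 to 491 in KO, against 367 to 511 in wild type. The brightest part was Itga2b, with means of 287 in KO and 326 in wild type (log2 fold change -0.18, adjusted p = 0.571). Pf4 ran the other way, with means of 97.7 and 53.5 (log2 fold change 0.84, adjusted p = 0.294), which the sum does not show. KO replicate 1 had the highest median signal (108, beside 80.7 to 88.4 on the other arrays) and correlated least with the rest (r = 0.947 to 0.957).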

How the data were processed

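The deposited values are signal intensity values, linear and not logged, made by the authors with MAS5 per the submitters' processing notes (version not given in the sources used here). The study's methods name gcRMA for normalization, but every array had the same trimmed mean of 500.003, as MAS5 scaling gives. No scanner files were used.

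Members and lists were chosen with earlier results of these data known. Signals were analysed as log2(signal + 7.96), the pseudocount being the 10th percentile of all values, so the changes of dim genes are understated. Of 45101 probe sets, 34958 had 1 gene symbol, 932 several and 9211 none, from the platform annotation, and 34754 matched a current gene by Entrez identifier. Probe sets with a mean log2 value at or above the 40th percentile were kept (23309), and the brightest stood for its gene (12726 genes). The 64 control probe sets were left out. limma 3.58.1 in R 4.3.3 (lmFit, eBayes with trend) compared KO with wild type, with Benjamini-Hochberg adjustment and a threshold of 0.05, and was tested on simulated data. Named were Slc39a13, the members, up to 4 called genes per list with the largest change (of lists without a call, the 2 genes of lowest p), and the 3 genes most like each member. Exceptions are stated. Precision is limited by 3 arrays per group. Alternatives were other filters, pseudocounts, normalizations, probe set rules and tests, a replicate block, and each array left out.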

Additional observations from a re-analysis of the deposited data

How the results depend on the processing

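The log2 fold change of each member stayed above 0 under all settings tried, at 0.12 to 0.74 (Thbs1), 1.10 to 1.35 (Thbs2), 0.21 to 0.46 (Thbs3), 1.24 to 1.54 (Thbs4) and 0.65 to 0.84 (Comp). Thbs3 passed under none of them. Thbs1 was 0.38 with the mean of its probe sets and 0.12 with the probe set brightest on the wild-type arrays, a setting chosen after seeing the data. Under those settings the trimeric minus pentameric value was -0.085 and -0.19, and with 1 array left out it ran from -0.10 to 0.19. Members past the threshold numbered 4 with any array left out, 3 with median centring or with the probe set brightest on the wild-type arrays (Thbs1 lost in both), 2 by limma without the trend and 0 by the methods' t-test after adjustment (4 at an unadjusted p under 0.05). That unadjusted count has no share over all genes beside it. The members were also chosen on this contrast, so it adds no support.

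Genes higher and lower in KO numbered 106 and 228 with median centring, 122 and 142 by limma without the trend, and 41 and 44 by the methods' t-test. With 1 array left out, 224 to 778 genes were higher and 199 to 809 lower. The highest counts came without KO replicate 3, the lowest without wild-type replicate 2. Partner genes higher in KO numbered 6 with median centring, 3 without the trend, 1 by the t-test and 8 to 20 with 1 array left out. Partner genes lower numbered 1 without the trend and 0 by the t-test (4 at an unadjusted p under 0.05, again without a share over all genes beside it). The log2 fold change of the endothelial marker Kdr ran from -0.052 (without KO replicate 1) to 0.55 with 1 array left out. Each fit with 1 array left out had fewer samples, and the cause of these differences was not tested.

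Deviations of same-numbered KO and wild-type arrays from their group means correlated at 0.03, 0.02 and -0.07, beside -0.07 to 0.05 for differently numbered arrays. Same-numbered arrays thus showed no shared shift. Whether they were prepared together was not given in the sources used here, and these values cannot decide it. With the replicate block, 345 genes were higher and 350 lower, Mmp13 passed (adjusted p = 0.0268), Col1a2 (0.0714) and Col9a1 (0.0833) did not, and 1 of 8 chondrocyte markers was higher.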
